A study of Mus musculus with 2 samples.

Results

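The 4 Id genes (Id1, Id2, Id3 and Id4) held 94 of the 75148 regions of open chromatin listed for mouse granulocyte monocyte progenitors (GMP). These 94 regions were chosen by their presence and place in the list made from both replicates together. A region belonged to an Id gene if its nearest protein-coding transcription start site (TSS) was that gene's, which held for 61 regions, or if it lay within 100 kb of the gene body, which added 33 regions. Of the 94, Id1 had 26, Id2 had 47, Id3 had 19 and Id4 had 2. The number and place of the regions in this list are therefore a description and were not tested.

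The assay for transposase-accessible chromatin (ATAC-seq) cuts open DNA with the transposase Tn5, so that open regions collect reads. It was run on primary GMP, bone marrow cells that go on to form neutrophils and monocytes. The donors were male adults of the strain C57BL/6J, 5 to 6 weeks of age. The series has 1 group of 2 biological replicates with an input of 50000 cells each, which carry the same donor label, and the sources used here do not give the gate used to sort the cells. Each region carries a fold enrichment, the authors' own value for the height of the signal over a denominator that the sources used here do not state. Read counts are not in these lists, so the depth is unknown, and absence of a region from a list means only that it fell short of the list's threshold. In a bulk assay, a region slightly open in all of the cells and a region open in a few of them cannot be told apart.

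Id proteins (inhibitors of DNA binding) have a helix-loop-helix domain but lack the basic region with which related factors hold DNA. They pair with E proteins such as those of Tcf3, Tcf4 and Tcf12 and keep them off their sites, called E-boxes, and they are known as targets of bone morphogenetic protein (BMP) and TGF-beta signals carried by Smad proteins. In blood formation, Id2 is known for its role in innate lymphoid and dendritic cells, and Id1 is expressed in myeloid progenitors.

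The sequences that carry the main observations are those under the summits of 7 distal regions, that is, regions whose summit is more than 1000 bp away from any protein-coding start. The first 4 are the regions of Id1, Id2 and Id4 in which a common stretch of bases was found, and the Id3 region with that gene's best match to its core, a match that does not stand apart from other regions. The other 3 are the distal regions of highest fold whose nearest gene is Id1, Id2 or Id3. For Id4 that region is already among the first 4. Each window is 201 bases of the plus strand of the RefSeq genome GRCm38.p6, whose chromosomes are those of mm10, with the summit in its centre. Capitals mark every match, on either strand, to one of 14 short motif strings spelled out further on. The windows lie at chr2:152735110-152735310 (Id1, -1.04 kb), chr12:25098819-25099019 (Id2, -1.78 kb), chr4:136140369-136140569 (Id3, -3.03 kb), chr13:48227781-48227981 (Id4, -33.3 kb), chr2:152727119-152727319 (Id1, -9.03 kb), chr12:25516829-25517029 (Id2, -420 kb) and chr4:136117100-136117300 (Id3, -26.3 kb). Distances run from the summit to the nearest annotated start of the Id gene, and a negative distance is upstream.
Id1 at -1.04 kb: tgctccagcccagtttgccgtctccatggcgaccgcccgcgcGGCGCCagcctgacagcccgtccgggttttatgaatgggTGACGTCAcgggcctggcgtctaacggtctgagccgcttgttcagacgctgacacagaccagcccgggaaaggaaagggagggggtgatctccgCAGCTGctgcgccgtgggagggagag
Id2 at -1.78 kb: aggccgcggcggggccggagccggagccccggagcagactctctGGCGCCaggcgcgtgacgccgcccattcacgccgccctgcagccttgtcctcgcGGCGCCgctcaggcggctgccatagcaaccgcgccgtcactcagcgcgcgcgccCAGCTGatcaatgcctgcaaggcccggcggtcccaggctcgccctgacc
Id3 at -3.03 kb: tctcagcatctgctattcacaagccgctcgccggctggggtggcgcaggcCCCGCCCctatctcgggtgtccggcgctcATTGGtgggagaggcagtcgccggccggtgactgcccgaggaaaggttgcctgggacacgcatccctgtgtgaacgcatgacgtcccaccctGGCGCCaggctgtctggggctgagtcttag
Id4 at -33.3 kb: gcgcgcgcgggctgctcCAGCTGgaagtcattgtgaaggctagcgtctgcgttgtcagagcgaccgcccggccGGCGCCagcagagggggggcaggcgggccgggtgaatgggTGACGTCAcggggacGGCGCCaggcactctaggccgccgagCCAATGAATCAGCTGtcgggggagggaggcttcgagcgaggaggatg
Id1 at -9.03 kb: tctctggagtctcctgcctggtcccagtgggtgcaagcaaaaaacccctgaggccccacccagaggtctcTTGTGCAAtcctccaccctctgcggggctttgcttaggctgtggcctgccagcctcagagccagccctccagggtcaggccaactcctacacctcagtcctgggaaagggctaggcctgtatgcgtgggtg
Id2 at -420 kb: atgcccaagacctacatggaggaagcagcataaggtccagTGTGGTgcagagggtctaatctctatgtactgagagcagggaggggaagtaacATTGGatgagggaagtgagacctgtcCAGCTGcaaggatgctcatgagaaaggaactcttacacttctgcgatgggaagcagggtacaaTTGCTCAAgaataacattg
Id3 at -26.3 kb: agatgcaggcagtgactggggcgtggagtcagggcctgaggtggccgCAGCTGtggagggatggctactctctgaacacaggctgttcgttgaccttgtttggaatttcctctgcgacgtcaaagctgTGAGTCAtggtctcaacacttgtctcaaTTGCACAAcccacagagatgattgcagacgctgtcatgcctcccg

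The Id1 window at -1.04 kb and the Id4 window at -33.3 kb shared an identical run of 20 bases around the string TGACGTCA, the cyclic AMP response element (CRE). This run occurred 2 times on the autosomes and X, counting both strands, and both places were these open regions, at chr2:152735183-152735202 and chr13:48227886-48227905. Over the 2793 pairs of windows from different Id loci, the longest shared run had a median of 8 bases, and the next longest after this one had 15. Directly beside the run the windows were less alike. Counted without gaps, 7 of the 20 bases before it and 9 of the 20 bases after it were identical. In Id4 the string GGCGCC, which is among the GC-rich sequences that BMP Smads bind, began 3 bases after the run, and another copy ended 26 bases before it. In Id1 a copy of the same string ended 25 bases before the run. In both windows the bases gcgaccgcccg stand shortly before this upstream copy, so the likeness was not confined to the run.

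A search for the stretch in all regions also found it in Id2. The 29 bases of Id4 from the start of the run to the end of the following GGCGCC were compared, without gaps and on both strands, with the 201 bases around each of 75129 summits on the autosomes and X. Id1 matched at 25 of the 29 bases (chr2:152735183-152735211) and Id2 at 23 (chr12:25098863-25098891, minus strand). Only 3 of the 75129 regions (0.00399%) had 23 or more identical bases, and they were the Id4 region itself and these regions of Id1 and Id2. The median region matched at 14. With the 20-base run alone, the Id2 region matched at 17 bases, which 4 regions (0.00532%) reached, and Id3 matched best at 13, in its region at -3.03 kb (chr4:136140518-136140537). That level was reached by 6.61% of all regions. With the 29 bases, the best Id3 match was in another region, 4.42 kb downstream, at 17 bases and against the direction of the gene, a level that 5.64% of all regions reached. By neither of these ungapped measures did Id3 stand apart, but a stretch with other spacing would be missed. In the Id3 window at -3.03 kb, GGCGCC follows the 20-base match after fewer bases than the 3 in Id4. A search with gaps was not run. The stretches of Id1, Id2 and Id4 lay in the direction in which each gene is transcribed. In that direction, each of these windows also holds a copy of GGCGCC before the stretch. The pattern was noticed in these windows and the search was set up afterwards. In the lines below, each read in the gene's direction, capitals mark the bases identical to Id4. Id1, Id2 and Id4 are shown over 29 bases. Id3 is shown for comparison, over the 20 bases of its best match to the run.
Id4 stretch: TGAATGGGTGACGTCACGGGGACGGCGCC
Id1 stretch: TGAATGGGTGACGTCACGGGcctGGCGtC
Id2 stretch: TGAATGGGcGgCGTCACGcGcctGGCGCC
Id3 best match to the run: TGAAcGcaTGACGTCcCacc

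The 3 regions that hold the stretch were rich in G and C for distal regions, and so was the Id3 region at -3.03 kb. The G+C content was 60.4% at Id1, 74.6% at Id2 and 68.1% at Id4, and 59.7% at Id3, beside a median of 48.2% over all distal regions. The observed over expected CpG ratio was 0.80 at Id1, 0.99 at Id2 and 0.79 at Id4, and 0.64 at Id3, beside a median of 0.22. Over all promoter regions the 2 medians were 60.2% and 0.70. All 4 regions were in both replicate lists. The Id1 region had a fold enrichment of 4.37 in replicate 1 and 4.18 in replicate 2, the Id2 region 5.74 and 5.03, the Id3 region 9.75 and 7.85, and the Id4 region 15.63 and 9.10. In the series-level list, made from both replicates together, they stood at 4.32, 5.53, 9.34 and 14.30. Fold rose in the order Id1, Id2, Id3 and Id4 in each of the 3 lists.

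The pair of CRE and GGCGCC within 100 bp of a summit was uncommon in the list as a whole. Both strings were present at 2 of the 94 Id regions (2.13%), the regions of Id1 and Id4 above, and at 85 of all 75129 regions (0.113%). Among distal regions the counts were 2 of 83 at the Id genes (2.41%) and 9 of 59567 in all (0.0151%). Most of the 85 thus lay in promoter regions, whose G+C and CpG medians are nearer to those of the Id1 and Id4 regions. The Id1 summit, at -1.04 kb, is only just beyond the 1000 bp limit of a promoter. These shares describe strings picked after the windows had been read.

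Most Id regions were found again in each replicate's own list. The list of replicate 1 contained 85 of the 94 regions (90.4%), beside 81.9% of all regions of the series-level list. The list of replicate 2 contained 74 (78.7%), beside 69.4% of all regions, and 73 (77.7%) were in both replicate lists, beside 66.1%. Since both replicates were also used to make the series-level list, these shares are no independent check of it. Of the others, 12 were in the list of replicate 1 only, 1 in that of replicate 2 only, the Id2 region at -101 kb, and 8 in neither. Missing regions were mostly still present in the deposited lists with a looser threshold, which held 8 of the 9 missing from replicate 1 and 18 of the 20 missing from replicate 2. The 1 region in neither looser list was the Id1 region at 2.97 kb downstream, which had the lowest series-level fold of the 94, 2.40.

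In the 73 regions found in both replicates, fold enrichment was lower in replicate 2 in 72. The median ratio of replicate 2 to replicate 1 was 0.82, with a range of 0.51 to 1.09. This is a feature of the whole series, in which 92.1% of shared regions were lower in replicate 2, with a median ratio of 0.83. The exception was the Id2 region at -420 kb, with 16.92 in replicate 1 and 18.53 in replicate 2. The median series-level fold was 8.30 for regions in both lists and 7.02 for the other 21, and their median widths were 488 bp and 374 bp.

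**Figure D1:**
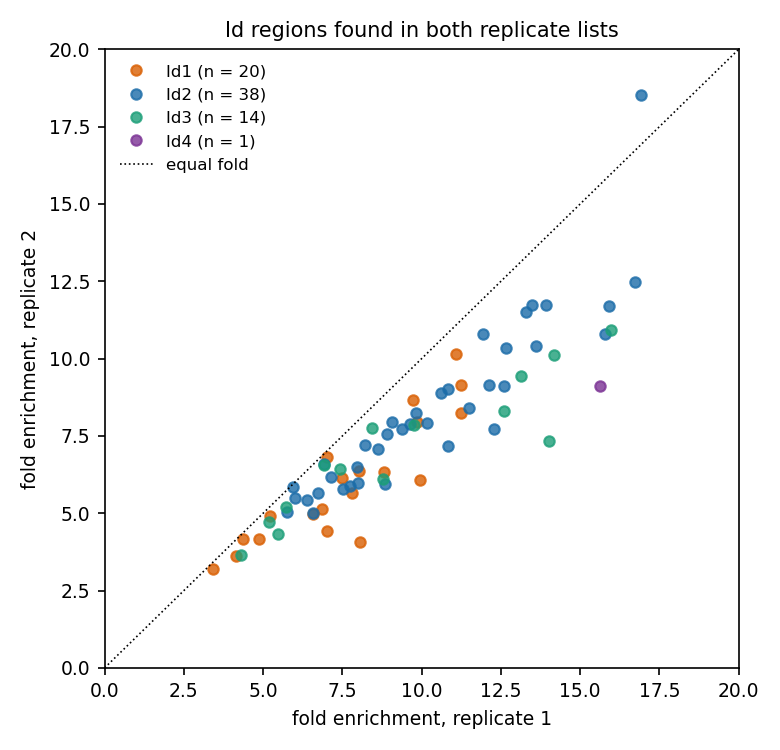
Fold enrichment of the 73 Id regions found in both replicate lists, replicate 1 on the horizontal and replicate 2 on the vertical axis, with 1 point per region, coloured by gene, and a dotted line of equal fold. All but the Id2 region at 16.92 and 18.53 lie below the line.

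The Id regions as a group were not higher than the rest of the list. Their median series-level fold was 7.70 (range 2.40 to 19.50), beside 8.09 for all regions, and 43 of the 94 lay above the list's median. The 83 distal regions had a median fold of 7.51 beside 7.90 for all distal regions. The 11 promoter regions, of the Id genes and their neighbours, had 10.58 beside 8.98 for all promoter regions. Of the Id promoters themselves, those of Id1 (5.08), Id2 (8.30) and Id3 (7.23) were below 8.98, and that of Id4 (10.89) was above it. By annotation, 46 summits were intergenic, 41 in introns, 4 in exons of non-coding genes and 3 in untranslated exons.

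**Figure D2:**
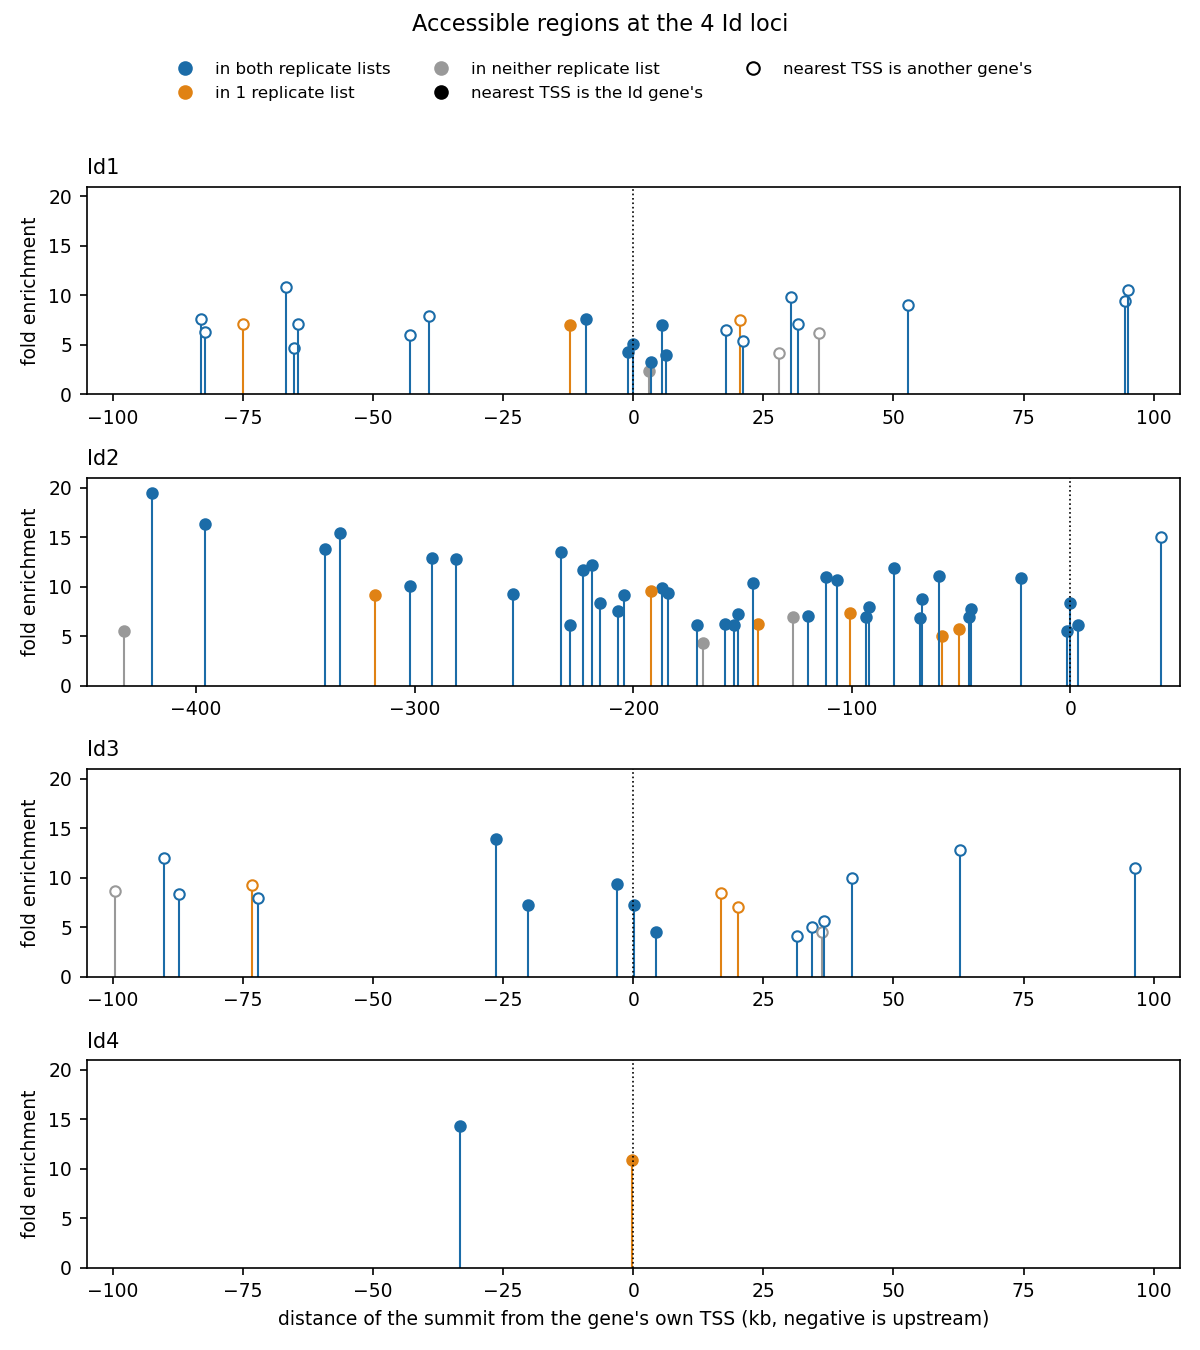
Series-level fold enrichment of each of the 94 Id regions (vertical axis) against the distance of its summit from the TSS of the Id gene in kb (horizontal axis), 1 panel per gene, with colours for the replicate lists and open circles for regions nearer to another gene. Id2 has a row of regions reaching to -433 kb, and Id4 has 2.

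The promoters of all 4 Id genes were open, a promoter being the 1000 bp on either side of a TSS, as were those of 61.4% of the 21646 protein-coding genes. In replicate 1 all 4 were open, beside 60.0% of genes, and in replicate 2 the promoters of Id1, Id2 and Id3 were open, beside 56.6%. The Id1 promoter region (chr2:152735867-152736545) had a fold of 5.21 in replicate 1 and 4.90 in replicate 2, the lowest of the 4 in both. The Id2 promoter region (chr12:25095946-25096578) had 8.92 and 7.55, and its summit lay in an untranslated exon of Id2. The Id3 promoter region (chr4:136143516-136144074) had 7.42 and 6.42, also with its summit in an untranslated exon. The Id4 promoter region (chr13:48260631-48261197) had 11.09 in replicate 1 and was missing from the thresholded list of replicate 2, whose looser list gave it 8.94. It was the highest of the 4 in the series-level list, at 10.89, beside 5.08 for Id1, 8.30 for Id2 and 7.23 for Id3.

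The 250 bases before the RefSeq start of Id4 (chr13:48260866-48261115, plus strand, GRCm38.p6) lie within that open region and are shown because Id4 had the highest promoter fold and few other regions. Capitals again mark the motif strings. They hold the string GGGCGGG of KLF and SP factors 4 times, CCAAT 2 times, GGCGCC 1 time and the CTCF string 1 time. In the promoter table of RefSeq, 23.4% of 32851 windows of 250 bases held GGGCGGG, 33.8% CCAAT, 9.59% GGCGCC and 7.06% the CTCF string. Id2, Id3 and Id4 were found in that table.
Id4 promoter: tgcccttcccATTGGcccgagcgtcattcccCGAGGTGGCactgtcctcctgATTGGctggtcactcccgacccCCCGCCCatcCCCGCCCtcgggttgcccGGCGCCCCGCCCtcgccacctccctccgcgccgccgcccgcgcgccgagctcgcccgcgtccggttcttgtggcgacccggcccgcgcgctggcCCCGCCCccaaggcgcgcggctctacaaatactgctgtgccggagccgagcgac

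Id2 had far more open regions than the other Id genes. It was the nearest gene of 46 regions, 45 of them distal. Only 14 genes (0.0647% of 21646), Id2 among them, had at least as many, the median gene had 2, the highest count was 89, and 23.9% of genes had none. The genes beside Id2 in this order were Maf with 48, Nrp1 with 47 and Gse1 with 46 on one side, and Plcb4 with 46, Zfhx3 with 46 and Etv6 with 45 on the other. The count depends on how much DNA is nearest to a gene, here called its territory, which for Id2 was 681 kb. Among the 834 genes with a territory within 1.5 times that of Id2, it ranked 4th, and their median count was 6. The regions stood at 67.5 per Mb of territory, beside 28.5 per Mb over the genome. In the replicate lists, 42 of these 46 regions were present in replicate 1, 38 in replicate 2 and 37 in both. Over all regions the shares were 81.9%, 69.4% and 66.1%.

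Id4 lies in a territory of nearly the same length, 657 kb, and was the nearest gene of 2 regions, which is 3.05 per Mb. Among 862 genes with a territory within 1.5 times that of Id4, the median count was 6, and 31.3% had as few as Id4 or fewer. Id1 had 8 nearest regions in a territory of 33.6 kb (238 per Mb), where 5899 genes of like territory had a median of 2 and 1.61% had at least as many as Id1. Id3 had 5 in 59.5 kb (84.0 per Mb), and 26.6% of the 5499 genes of like territory had at least as many. Since the Id genes were picked with such counts known, these places in the order are a description only.

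**Figure D3:**
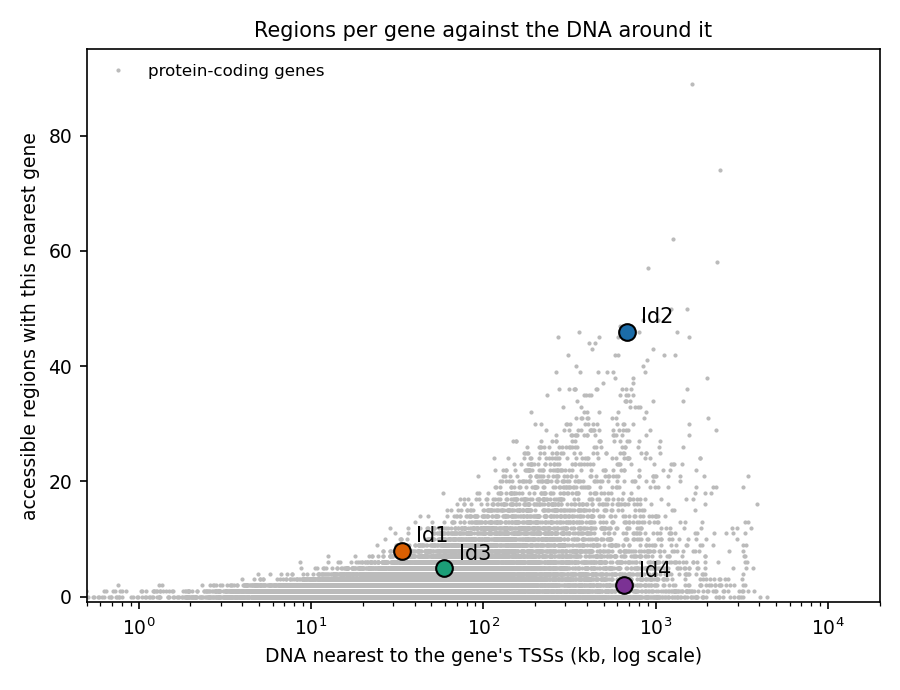
Number of regions with a given nearest gene (vertical axis) against the length of DNA nearest to that gene in kb (horizontal axis, log scale), with 1 grey point per protein-coding gene and the 4 Id genes in colour. Id2 (46 regions) and Id4 (2 regions) have territories of 681 kb and 657 kb.

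Nearly all of the Id2 regions were upstream of the gene. Of the 45 distal regions, 44 lay between -1.78 kb and -433 kb and 1 lay downstream at 3.66 kb (fold 6.39 in replicate 1 and 5.43 in replicate 2). Over this span of 431 kb the regions stood at 102 per Mb and covered 5.39% of the DNA. The gap between neighbouring summits had a median of 6.97 kb and ranged from 0.485 kb to 53.5 kb, the widest being between -341 kb and -396 kb. Beyond the farthest region, 226 kb of Id2 territory held none. The next upstream protein-coding start is that of Rnf144a, at 1320 kb. The regions are assigned to Id2 by distance alone, and no value here ties them to Id2 rather than to other genes, coding or non-coding.

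The highest folds at Id2 were far from the gene. The region at -420 kb (chr12:25516740-25517216), intergenic, had a series-level fold of 19.50, the highest of all 94, with 16.92 in replicate 1 and 18.53 in replicate 2. The region at -396 kb followed with 16.73 and 12.49, that at -334 kb with 15.91 and 11.71, that at -341 kb with 13.30 and 11.52, and that at -233 kb with 13.93 and 11.74. All 5 were above the Id2 promoter region, at 8.92 and 7.55, in each replicate. They were picked by the series-level fold, which both replicates made, so the replicates are no independent check of this. The farthest region, at -433 kb, had a series-level fold of 5.49 and was in neither thresholded replicate list, and the looser lists gave 5.67 and 4.55. The broadest Id2 region, 1101 bp at -92.2 kb, had 8.20 in replicate 1 and 7.21 in replicate 2.

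By distance, the 12 upstream regions within 100 kb of Id2 had a median series-level fold of 7.37, the 15 from 100 to 200 kb had 7.21, the 10 from 200 to 300 kb had 10.44, and the 7 from 300 to 450 kb had 13.80. For upstream distal regions of all genes, the medians over the same distances were 7.87, 8.60, 8.86 and 8.96. In replicate 1 the Id2 medians were 7.98, 8.81, 11.70 and 14.61, and in replicate 2 they were 6.90, 5.97, 8.41 and 11.71. Both replicates thus had their highest medians beyond 200 kb. Across the 44 regions, which share a locus and a set of libraries, Spearman's rho of fold with distance was 0.43. From the replicates' own folds it was 0.57 in replicate 1 (n = 40) and 0.47 in replicate 2 (n = 36). These values and the replicate medians cover only regions in that replicate's thresholded list. They leave out, among others, the farthest region, at -433 kb, with a series-level fold of 5.49. Every distance class holds fewer than 20 regions. Without the 200 to 300 kb class rho was 0.27, and leaving out each of the other classes gave 0.46 (0 to 100 kb), 0.54 (100 to 200 kb) and 0.36 (300 to 450 kb). G+C content moved with distance as well, with medians of 54.1%, 50.5%, 49.8% and 47.4% and a rho of -0.60, and its part in the fold was not tested.

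**Figure D4:**
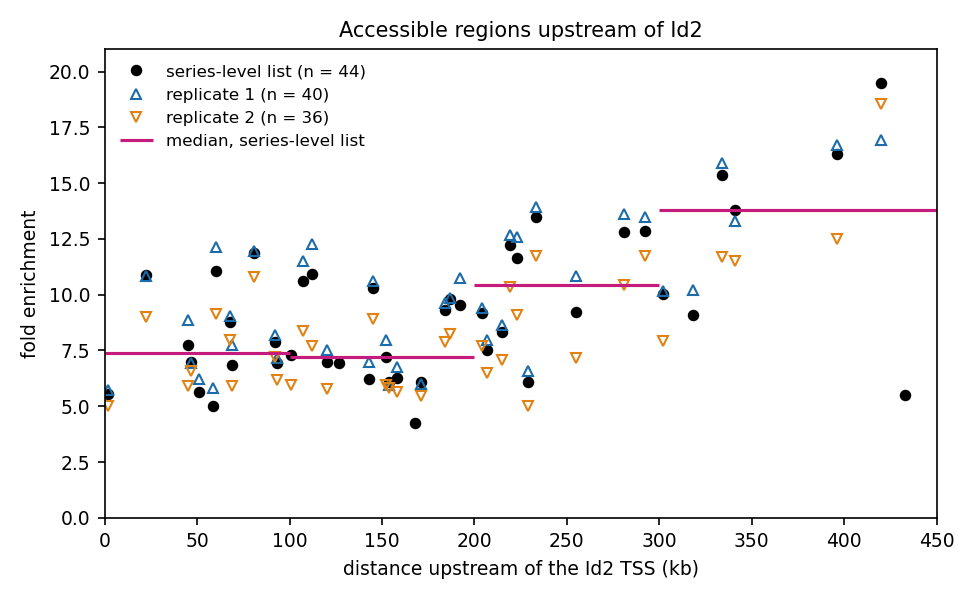
Fold enrichment of the 44 distal regions upstream of Id2 (vertical axis) against distance from the TSS in kb (horizontal axis), with 1 point per region and list and bars for the series-level median in each distance class. The medians are 7.37 and 7.21 in the nearer classes and 10.44 and 13.80 beyond 200 kb.

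Many of the upstream Id2 summits lay inside genes for long non-coding RNA. Gm36287 (chr12:25150915-25209377, plus strand) held 10 of them, with series-level folds from 5.00 to 11.88, and 8 of these were in both replicates. Gm36723 (chr12:25303940-25471979, plus strand) held 12, with folds from 6.10 to 15.38, and 11 were in both. Of all regions, 66.1% were in both. Gm47713 held 2. Gm47705, which lies within Gm36287, held 1 that is also among the 10 of Gm36287. The summit at -207 kb (fold 7.50) lay 946 bp from the start of Gm47713, and its region also covers the first base of Gm36723. Another summit, at -219 kb (fold 12.21), lay 29 bp from an annotated start of Gm36723. The start of Gm36287 had no region within 1000 bp. In GENCODE vM21 the 46 Id2 regions had 21 summits in introns, 21 between genes, 3 in non-coding exons and 1 in an untranslated exon.

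At Id1 (chr2:152736251-152737410, plus strand), the 8 nearest regions lay between -12.1 kb and 6.39 kb. Their series-level folds ranged from 2.40 to 7.59 with a median of 4.70, and all 8 were under the median of the whole list, 8.09. The highest, at -9.03 kb, had 8.81 in replicate 1 and 6.33 in replicate 2. Next came the region 5.47 kb downstream, 891 bp wide, with 7.0 and 6.82, and the farthest, at -12.1 kb, with 6.91 in replicate 1 and 6.18 in the looser list of replicate 2. The regions at 3.35 kb (3.42 and 3.21) and 6.39 kb (4.13 and 3.61) were the lowest of those in both replicates. All 8 summits were intergenic.

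The other 18 Id1 regions lay nearer to Cox4i2 (8 regions), H13 (6), Mcts2 (2) and Bcl2l1 (2). The 2 of Bcl2l1, which encodes the survival factor Bcl-xL, were at its promoter with series-level folds of 9.41 and 10.58. The broadest region of the 94, at 1479 bp, was also among these 18, with 9.84 in replicate 1 and 7.95 in replicate 2. The region of 10.58 was the last inside the 100 kb limit, at 93.6 kb from the Id1 body, and the first outside, at 109 kb, had 6.45. No value here ties these regions to Id1 rather than to the neighbouring genes.

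Id3 (chr4:136143497-136145755, plus strand) had 5 nearest regions, all in both replicates, beside 66.1% of all regions. The highest, at -26.3 kb (chr4:136116931-136117586), had 15.98 in replicate 1 and 10.91 in replicate 2. The region at -3.03 kb had 9.75 and 7.85, that at -20.2 kb had 6.91 and 6.57, and that 4.42 kb downstream had 5.17 and 4.73. Both distal regions of highest fold, picked by their series-level value, stood above the promoter region (7.42 and 6.42) in each replicate. The other 14 regions lay nearer to E2f2 (7 regions), Rpl11 (5), Asap3 (1) and Tcea3 (1). The 7 of E2f2, an activator of cell cycle genes, had series-level folds from 4.08 to 9.93. Of these, 4 were in both replicates, beside 66.1% of all regions. At the 100 kb limit, the last region inside was at 99.4 kb (8.67) and the first outside at 108 kb (9.13).

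Id4 (chr13:48261228-48266026, plus strand) had its promoter region and the region at -33.3 kb (chr13:48227713-48228139), which had 15.63 in replicate 1 and 9.10 in replicate 2. Both summits lay in introns of the antisense gene A330033J07Rik, and each also in an intron of a further non-coding gene. No other region lay within 100 kb, and the first outside was at 198 kb (7.22). For Id2 (chr12:25093799-25097140, minus strand), the only region added by the 100 kb limit was at the promoter of Kidins220, 38.9 kb from the Id2 body, with 15.77 in replicate 1 and 10.79 in replicate 2. The first outside, at 118 kb, had 6.69.

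Motif strings were counted within 50 bp of the summit, on both strands. The string CAGCTG, an E-box of the kind bound by E proteins with their partners, was at 15 of the 83 distal Id regions (18.1%), beside 7.98% of all distal regions, and 10 of the 45 at Id2 held it (22.2%). Over the whole 201-base windows it was at 29 of 83 (34.9%), beside 14.7%. The other E-box counted, CAGGTG, was at 6 (7.23%), beside 6.11%. Among the top-fold distal regions printed above, that of Id2 holds CAGCTG within 50 bp of the summit. Those of Id3 and Id4 hold it only farther out in the window, and that of Id1, at -9.03 kb, does not hold it.

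Strings of the main myeloid factors had shares close to those of all distal regions. PU.1 (GAGGAAGT) was at 9 of the 83 distal regions (10.8%, beside 8.73% of all), C/EBP (TTGCNNAA) at 7 (8.43%, beside 10.6%) and RUNX (TGTGGT) at 13 (15.7%, beside 18.1%). At Id2 alone, RUNX was at 11 of 45 (24.4%). Of all 94 regions, 26 (27.7%) held at least 1 of these 3 strings, beside 29.4% of all regions. Among signal-borne factors, AP-1 (TGANTCA) was at 9 distal regions (10.8%, beside 6.47%), the Smad string GGCGCC at 6 (7.23%, beside 2.42%), STAT (TTCNNNGAA) at 3 (3.61%, beside 2.26%) and CRE (TGACGTCA) at 2 (2.41%, beside 0.269%). The string of GATA factors, read as AGATAA, was at 3 (3.61%, beside 3.56%), and that of CTCF, CNAGGNGGC, at 4 (4.82%, beside 5.66%). For KLF and SP factors the string GGGCGGG was at 4 (4.82%, beside 2.76%). The box CCAAT was at 3 (3.61%, beside 11.7%), and the EGR string GCGTGGGCG at 0, beside 0.0504%. Strings may overlap, as those of the CCAAT box, AP-1 and the E-box do in the Id4 window. With such small counts these shares are a description, and a match is not a bound site. The Id distal regions also had more G and C, with a median of 52.1% beside 48.2%, and its part in the counts of GC-rich strings was not tested.

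**Figure D5:**
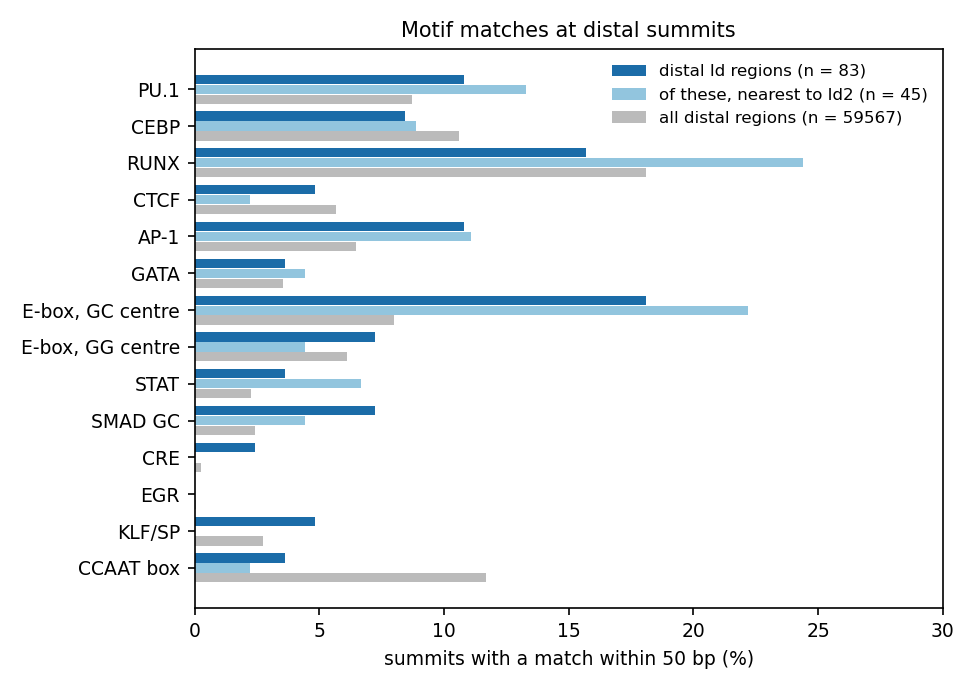
Percent of summits with a motif string within 50 bp (horizontal axis) for each of 14 strings (vertical axis), for the 83 distal Id regions, the 45 of them nearest to Id2 and all 59567 distal regions. The E-box with a GC centre stands at 18.1%, 22.2% and 7.98%.

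Of 30 genes listed around the Id pathway, 29 had open promoters in the series-level list, beside 61.4% of all genes, and 27 in both replicates. The list also holds Hes1, Hes6 and Hhex. It was chosen with earlier results of these data known, so these counts are a description only. The E proteins and their partners were open in 7 of 7. Of the genes for E proteins, which Id proteins bind, Tcf3 had a promoter fold of 10.87, Tcf4 of 11.47 and Tcf12 of 11.99 in the series-level list. Tal1 (7.32), Lyl1 (4.97), Lmo2 (8.70) and Ldb1 (10.91), which encode members of complexes with E proteins, were also open. Tcf4 was the nearest gene of 32 regions in a territory of 883 kb (36.3 per Mb), and Lmo2 of 18 in 121 kb (149 per Mb).

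All 9 BMP and TGF-beta receptor genes that were listed, which are not the whole receptor family, were open in the series-level list and 8 in each replicate. The exception was Bmpr1a, a type I BMP receptor gene, with a series-level fold of 6.41. Over all protein-coding genes, 61.4% were open in the series-level list, 60.0% in replicate 1 and 56.6% in replicate 2. Tgfbr2, the type II TGF-beta receptor gene, was the nearest gene of 44 regions in 443 kb (99.3 per Mb). Of these, 21 were in both replicates, a lower share than the 66.1% of all regions. Of the Smad genes 7 of 8 were open, among them Smad1 (8.49) and Smad5 (7.42), which carry BMP signals, and Smad4 (11.15), the common partner. Smad9 was not in the series-level list or either replicate list, and no region was nearest to it. Smad7, an inhibitory Smad, was the nearest gene of 36 regions in 341 kb (106 per Mb), and its promoter fold was 4.09. The cell cycle inhibitors Cdkn1a (5.87), Cdkn1b (6.46) and Cdkn2a (8.83) were open in both replicates, and so were Hes6 (9.64) and Hhex (5.98). Hes1, a repressor in the Notch pathway, was open in replicate 1 (series-level fold 4.17, 26 nearest regions in 340 kb) and not in replicate 2.

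Promoters of marker genes were set against the GMP label. All 12 GMP and myeloid markers, Mpo, Elane and Spi1 among them, were open in both replicates. For other cell types, 0 of 4 T cell and 0 of 3 hepatocyte markers were open in any of the 3 lists. In the series-level list, 3 of 5 erythroid, 2 of 4 megakaryocyte, 2 of 4 B cell and 2 of 4 dendritic cell markers were open, beside 61.4% of all genes. The part of such other cells in the Id regions was not tested.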

How the data were processed

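Lists of accessible regions in mm10 were deposited for 2 biological replicates of mouse GMP and for the series. Per the file headers and the labels, they are ATAC-seq peaks passed through the irreproducible discovery rate (IDR). The sources used here do not name the aligner, the peak caller or a shift of Tn5 cut sites. In each deposited row, fold enrichment is a ratio and q is on a -log10 scale. A score of at least 540 marks the authors' thresholded lists. Replicate lists held 65423 and 53686 merged regions.

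Rows of the series-level conservative list overlapping by 1 bp were merged, each region keeping the summit and fold of its highest row. Overlap with a replicate list meant at least 1 bp. Protein-coding genes came from GENCODE vM21, without Y and unplaced sequences. Motifs were 14 exact strings on both strands. Sequences came from RefSeq (GRCm38.p6). Python 3.11.15, numpy 2.4.6 and matplotlib 3.10.9 were used, and the counting steps were tested on simulated data. With 1 group, no test was run.

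Members, gene lists and motifs were chosen with earlier results of these data known. Regions named were those at the Id promoters, the 5 of highest fold, the nearest, farthest and broadest, and those at the 100 kb limit. Further ones, and the stretch shared by Id1, Id2 and Id4, were chosen after their values were seen. Genes named were the 4 Id genes, a list of 30 pathway genes and the 3 genes on each side of Id2 by number of regions. Alternatives were other lists, thresholds, distances, merging, start sites, motif windows and single replicates, and for the pathway list the single replicates were added after seeing the data.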

Additional observations from a re-analysis of the deposited data

How the results depend on the processing

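The count of 94 Id regions fell to 43 with only regions at or above the list's median fold and to 61 with the nearest TSS alone, and was 147 in the looser replicated list. For the number nearest to Id2 (46), the same median limit gave 25 and the replicated list 72. From a single replicate's list, there were 75 to 89 Id regions, 39 to 43 nearest to Id2, 3 to 4 open Id promoters and 27 to 28 open pathway promoters. Id4 had 1 region in the list of replicate 2 and 2 in that of replicate 1. The share of Id regions in both replicates (77.7%) was 97.9% with the looser replicate lists, beside 97.1% of all regions, and 86.0% at or above the median fold, beside 90.2%. The share with a PU.1, C/EBP or RUNX string (27.7%) was 41.5% within 100 bp of the summit, beside 41.6% of all regions, and 47.9% within 150 bp, beside 48.5%. With those of single replicates included, 21 alternative values stayed within 1.5 times the reported count or close to the reported share, among them 78 regions at 50 kb and 133 at 200 kb. Counts per gene moved more with that distance, from 26 to 17 (50 kb) and 40 (200 kb) at Id1 and from 19 to 12 and 38 at Id3, while Id2 had 47 and 52 and Id4 had 2 and 3. No paired analysis was possible because there is 1 group. Depth is unknown, so regions near the threshold cannot be told apart from closed ones.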
